A study of Homo sapiens with 3 samples.

Results

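The heat shock proteins and DNAJ chaperones examined here are the genes whose symbol in the array annotation belongs to the HSPA, HSPB, HSPD1, HSPE1, HSPH1, HSP90 or DNAJ families, the heat shock factors HSF1 and HSF4 or the BAG co-chaperones. The rule took 77 genes with 119 probes out of 18851 genes on the array. It used no measured value, but it and the classes below were chosen with earlier results of these data known. H2373 is a human line grown from malignant pleural mesothelioma. Its cells received no dye, or 36 µM of H258 (Hoechst 33258) or of H342 (Hoechst 33342) for 3 h. Both dyes bind the minor groove of DNA rich in A and T, and their structures differ in 1 group on the end phenyl ring, a hydroxyl in H258 and an ethoxy in H342. Each condition was measured on 1 Illumina BeadChip array, so there were 3 arrays and no replicates. All values below therefore compare single arrays with no error between samples and no p-value, and a gene is called higher or lower only by the size of its difference. For how long the untreated cells were cultured in parallel was not given in the sources used here.

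The arrays were alike in brightness. Median signals lay between 130.0 and 133 units, and between 15115 and 16169 of 48798 probes were detected at a detection p under 0.05. The weakest detected signals were between 156 and 160.0 units. Of 11 markers of mesothelial, epithelial and mesenchymal cells, 8 were detected on at least 1 array, including mesothelin (MSLN), calretinin (CALB2), WT1, KRT7, KRT8, KRT18 and vimentin (VIM), while PDPN, UPK3B and KRT5 were not. The keratin gene KRT19 was detected in untreated cells only. Of the 77 chaperone genes, 59 were detected on at least 1 array by the probe used and 18 were not.

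Chaperones hold unfolded proteins and help them to fold. HSP70 proteins bind and release their clients in a cycle driven by ATP, DNAJ proteins deliver clients and start the cycle, and nucleotide exchange factors such as HSPH1 and the BAG proteins end it. HSP90 proteins act later on kinases and receptors, and small heat shock proteins hold clients without ATP. Each compartment has a set of its own: HSPA8, HSPA1A and HSP90AA1 in the cytosol, HSPA5 (BiP) and HSP90B1 (GRP94) in the endoplasmic reticulum, and HSPA9, HSPD1 and HSPE1 in mitochondria. Cytosolic members are known to be induced through HSF1 when proteins unfold in the cytosol, and those of the endoplasmic reticulum through ATF6 and XBP1 in the unfolded protein response.

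The letters around the start sites were searched for the elements of both pathways. The heat shock element was searched on both strands as GAA, TTC and GAA in a row with 2 bases of any kind between them, and the endoplasmic reticulum stress element as CCAAT followed after any 9 bases by CCACG, in RefSeq promoters of GRCh38.p14 that run from 250 bases before to 50 after a start site. Of the 77 genes, 68 had such a window, and the other 9 were not searched. Only exact matches were counted, so a gene not named below may hold a looser form or one outside the window. The heat shock element stood in 0.49% of all 35116 windows, and in those of HSPA6, HSPA8, HSP90AA1, HSP90AB1, DNAJA1, DNAJB6 and HSPD1. The stress element stood in 0.077% of all windows, and among these genes in HSPA5 and HSP90B1. A shorter form of the latter, ATTGG and CCACG with 1 base between them, stood in 0.054% of all windows and in 0 of these genes. The 2 cytosolic HSP90 genes and the main HSP70 and HSP90 of the endoplasmic reticulum are printed because they define their compartments and hold these elements, 5′ to 3′ on the gene's strand. Capitals mark the element on either strand.
HSP90AA1, chr14:102086995-102087294, minus strand: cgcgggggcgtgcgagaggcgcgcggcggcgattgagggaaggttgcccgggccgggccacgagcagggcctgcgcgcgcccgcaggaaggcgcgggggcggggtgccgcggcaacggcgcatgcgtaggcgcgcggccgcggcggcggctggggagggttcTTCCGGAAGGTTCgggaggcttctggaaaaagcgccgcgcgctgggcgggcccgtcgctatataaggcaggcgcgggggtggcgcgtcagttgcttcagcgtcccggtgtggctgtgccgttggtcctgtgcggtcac
HSP90AB1, chr6:44247693-44247992, plus strand: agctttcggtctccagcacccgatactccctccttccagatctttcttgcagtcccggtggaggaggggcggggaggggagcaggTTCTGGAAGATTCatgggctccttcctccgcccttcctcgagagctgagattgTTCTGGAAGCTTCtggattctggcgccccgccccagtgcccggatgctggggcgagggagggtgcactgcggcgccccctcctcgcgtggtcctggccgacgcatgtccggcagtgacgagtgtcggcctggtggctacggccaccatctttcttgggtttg
HSPA5, chr9:125241294-125241593, minus strand: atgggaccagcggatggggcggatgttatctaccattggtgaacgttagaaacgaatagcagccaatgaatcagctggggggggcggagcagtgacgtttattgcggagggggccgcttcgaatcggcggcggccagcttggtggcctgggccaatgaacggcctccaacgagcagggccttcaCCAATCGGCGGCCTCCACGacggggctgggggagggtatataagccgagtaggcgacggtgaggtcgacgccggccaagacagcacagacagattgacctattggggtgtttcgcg
HSP90B1, chr12:103930160-103930459, plus strand: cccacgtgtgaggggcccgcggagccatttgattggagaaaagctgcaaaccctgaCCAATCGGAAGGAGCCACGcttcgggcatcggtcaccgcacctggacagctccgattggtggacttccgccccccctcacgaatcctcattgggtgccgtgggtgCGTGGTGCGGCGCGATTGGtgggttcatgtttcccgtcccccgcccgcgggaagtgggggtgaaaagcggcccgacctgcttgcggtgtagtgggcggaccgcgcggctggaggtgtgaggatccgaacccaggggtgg

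The windows of HSPH1 and DNAJB9 are shown because HSPH1 was the cytosolic gene that stayed 2-fold lower with H258 under every background correction, and DNAJB9 the lumen gene called with H342. Capitals mark runs of at least 5 bases that are all A or T, the kind of stretch the dyes bind. HSPH1 had 4 such runs and 48.3% A and T, and DNAJB9 had 1 run and 36.3%. The median over all windows was 2 runs and 41.3%, and 29.8% of windows had more runs than HSPH1. These matches describe the letters only, and whether a dye was bound there was not tested.
HSPH1, chr13:31162339-31162638, minus strand: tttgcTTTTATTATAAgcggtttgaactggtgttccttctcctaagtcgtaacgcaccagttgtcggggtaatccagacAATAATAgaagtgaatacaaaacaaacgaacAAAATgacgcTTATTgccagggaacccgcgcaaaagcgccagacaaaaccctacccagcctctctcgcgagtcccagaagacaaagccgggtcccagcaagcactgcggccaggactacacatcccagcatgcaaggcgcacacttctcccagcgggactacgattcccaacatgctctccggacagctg
DNAJB9, chr7:108569624-108569923, plus strand: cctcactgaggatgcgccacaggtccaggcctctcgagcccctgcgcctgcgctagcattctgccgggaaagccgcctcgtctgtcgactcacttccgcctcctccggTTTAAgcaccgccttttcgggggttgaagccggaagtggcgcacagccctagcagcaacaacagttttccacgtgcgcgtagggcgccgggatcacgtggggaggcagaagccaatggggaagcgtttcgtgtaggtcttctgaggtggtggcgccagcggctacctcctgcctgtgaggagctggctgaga

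Against untreated cells, 58 chaperone genes could be compared for H258, having a detected signal on 1 array or both. Of these, 43 lay within 0.50 of 0 on the log2 scale. By the 2-fold rule 1 was higher and 3 were lower, beside 0.768% higher and 3.35% lower among all 10550 genes compared. The lower genes were HSPH1, DNAJB4 and DNAJC2, and the higher one was DNAJC30. The median of the 58 was -0.03, and that of all genes was 0.06 with quartiles of -0.27 and 0.31. Both quartiles of all genes also lie within 0.50 of 0, so lying there is not particular to chaperones. The share of all genes in that range was not counted. In RNA pooled over a culture, fewer cells with a transcript and less of it per cell cannot be told apart.

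H342 had 59 genes to compare, of which 41 lay within 0.50 of 0. There 0 were higher and 4 were lower by 2-fold, beside 1.25% higher and 3.61% lower among all 10581 genes. The 4 were DNAJB4, DNAJB9, BAG5 and DNAJC27. The median was -0.01, and that of all genes 0.03 with quartiles of -0.24 and 0.28. These quartiles too lie within 0.50 of 0, and the share of all genes there was not counted. The single untreated array stands in both comparisons, so any deviation of that array enters both values of a gene.

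**Figure D1:**
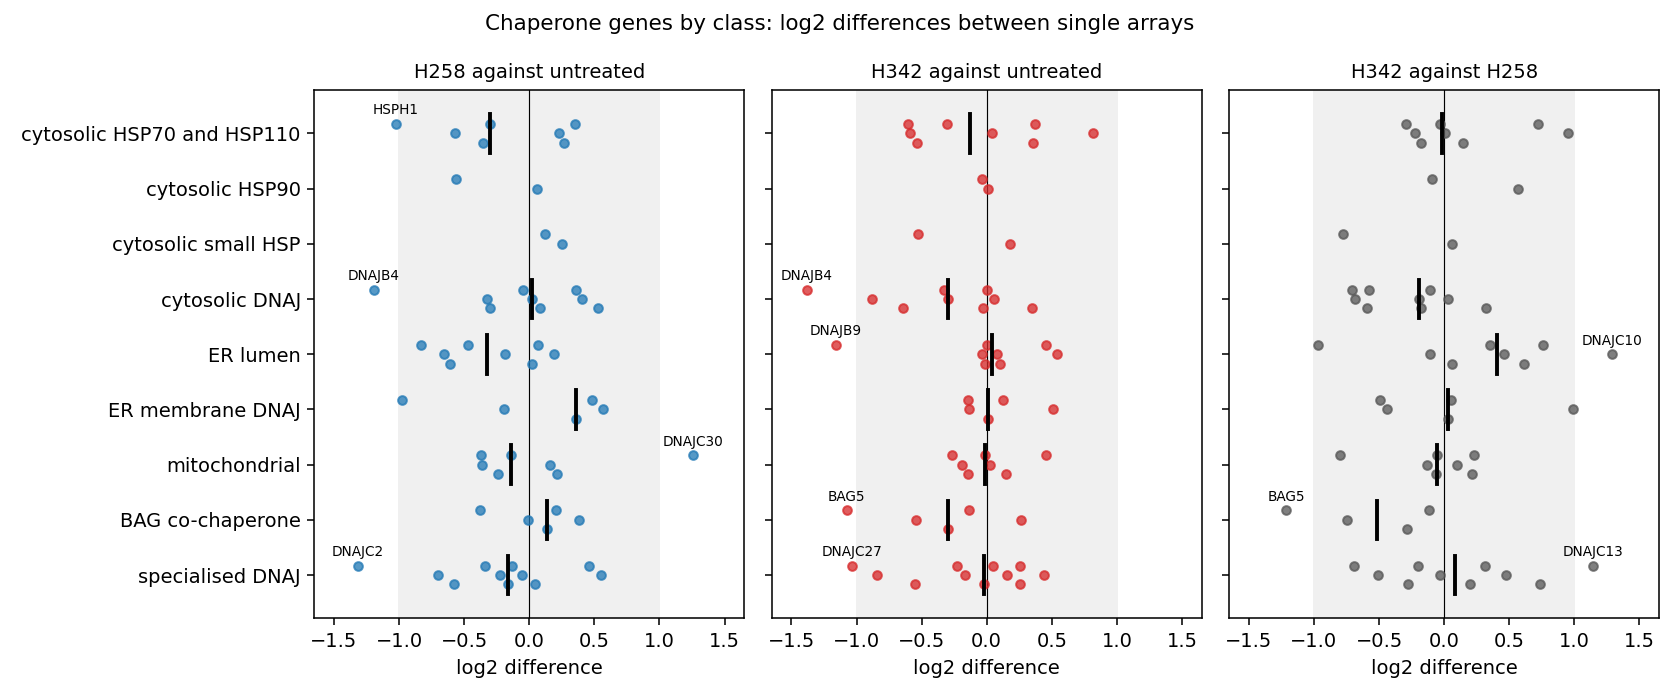
Log2 differences between single arrays (horizontal axis) for the chaperone genes with a detected signal on either array, by class (vertical axis), for H258 against untreated, H342 against untreated and H342 against H258; each point is a gene, black bars are class medians for classes of at least 3 genes, the shaded band is less than 2-fold, and HSF1 and HSPA12A are not drawn. Most points lie within the band, and the endoplasmic reticulum lumen has a median of -0.33 with H258 and 0.04 with H342.

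In the cytosolic HSP70 group the largest difference was at HSPH1, the HSP110 chaperone that exchanges nucleotide on HSP70 and helps to dissolve aggregates. Its signal was 8007 units in untreated cells, 4067 with H258 and 6199 with H342. It was 2.04-fold lower with H258, a log2 difference of -1.03, and -0.30 with H342. The value with H258 was near the 2-fold line throughout, as it stayed past it without background correction (-1.005) and in the authors' normalized table (-1.005), and was -0.997 without normalization between arrays.

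HSPA8, the constitutive cytosolic HSP70, was lowest with H342. Its signals were 23314, 19057 and 15387 units in the order untreated, H258 and H342, with log2 differences of -0.35 and -0.53. The second detected probe of HSPA8 gave -0.04 and -0.20. HSPA4, an HSP110 relative, showed -0.30 and -0.59, and its other detected probe -0.43 and -0.02. HSPA14, a ribosome-bound HSP70, had signals of 1834, 1246 and 1169 units and differences of -0.57 and -0.61.

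The stress-inducible HSP70 genes differed little. HSPA1A, the main inducible form, read 820 units in untreated cells, 909 with H258 and 967 with H342. HSPA1B read 1075, 1295 and 1257 units. Both were somewhat higher on each treated array, by 0.23 and 0.37 for HSPA1A and by 0.35 and 0.36 for HSPA1B. Their transcripts are nearly identical, so a probe of one can read the other and the 2 values are not separate evidence. HSPA6, a form that human cells make under stress and hardly at rest, had both probes undetected on all 3 arrays, with signals between 103 and 134 units. HSPA1L, a relative encoded beside this pair, was detected with H342 alone, where it was at least 1.26-fold higher than untreated. Its signals were 126, 115 and 167 units, the last close to the weakest detected signals. HSPA4L showed 0.27 with H258 and 0.04 with H342 at signals between 172 and 186 units. HSPA2 was not detected on any array.

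The cytosolic HSP90 genes parted with H258. HSP90AA1, the inducible form, had 27168 units in untreated cells, 19060 with H258 and 25804 with H342. Its differences were -0.56 and 0.01, and its other 2 detected probes gave -0.75 and -0.23 with H258 against -0.20 and 0.11 with H342. All 3 probes were thus lower with H258, and they disagreed in sign with H342. HSP90AB1, the constitutive form, had 15968, 17426 and 14550 units and differences of 0.06 and -0.04.

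Of 7 small heat shock protein genes, only HSPB1 and HSPB8 were detected by the probe used. HSPB1, an abundant holder of unfolded proteins, had 23029, 26250 and 24934 units and differences of 0.12 and 0.18. HSPB8, which works with BAG3 in selective autophagy, had 2026, 2379 and 1355 units and differences of 0.25 and -0.53. BAG3 itself showed the same order of arrays: 4790 units in untreated cells, 5611 with H258 and 3114 with H342, that is 0.21 and -0.54. Between the dyes the log2 difference of H342 against H258 was -0.78 for HSPB8 and -0.75 for BAG3, both short of 2-fold. CRYAB, a further small heat shock protein that the rule did not take, was undetected on all arrays.

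Among the cytosolic DNAJ genes, DNAJB4 was lower with both dyes. Its signals were 308, 191 and 178 units, close to the weakest detected ones, and it was 2.29-fold lower with H258 and 2.61-fold lower with H342. Without background correction the log2 differences shrank from -1.19 and -1.38 to -0.63 and -0.72. A second probe of DNAJB4 had 225, 138 and 171 units. It was not detected with H258, where it was at least 2.02-fold lower, and its difference with H342 was -0.74, short of 2-fold. DNAJA1, a major partner of HSPA8, had 13238, 11130 and 6844 units and differences of -0.30 and -0.88, the next lowest of the group with H342. Its value was nearly the same without background correction, -0.87. DNAJB1, the DNAJ protein most used by inducible HSP70, had 1336, 1713 and 1037 units. It was 0.40 with H258 and -0.30 with H342. DNAJB2, a neuronal form with ubiquitin-interacting motifs, was higher with both, by 0.52 and 0.35 at 1208, 1658 and 1406 units. DNAJB6, a suppressor of aggregation, showed -0.32 and 0.00, and DNAJC7, which carries tetratricopeptide repeats, 0.02 and 0.06.

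**Figure D2:**
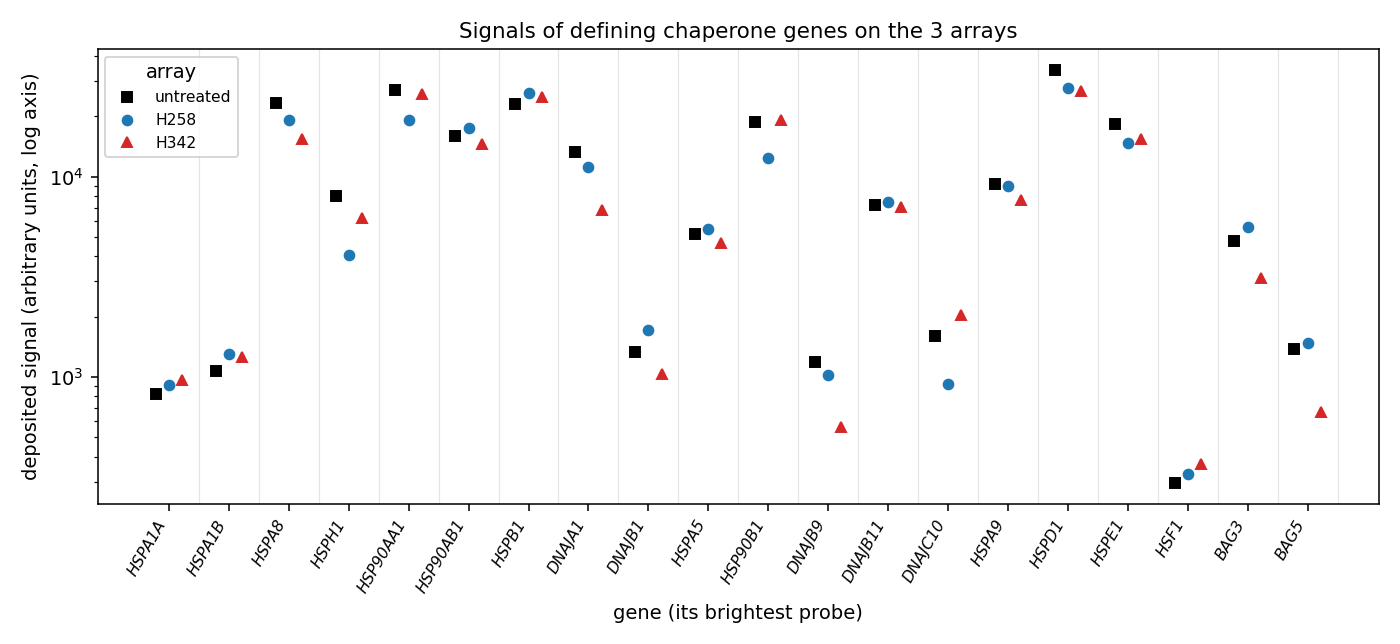
Deposited signals before background correction (vertical log axis, arbitrary units) of 20 chaperone genes on the untreated, H258 and H342 arrays, 1 point per array; signals of different genes come from different probes and cannot be set against each other. HSPH1, HSP90AA1, HSP90B1 and DNAJC10 were lowest with H258, and HSPA8, DNAJA1, DNAJB9, BAG3 and BAG5 were lowest with H342.

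The chaperones of the endoplasmic reticulum lumen were 8 genes, all detected on all 3 arrays. HSPA5, the HSP70 of this compartment and the usual marker of the unfolded protein response, had 5142 units in untreated cells, 5483 with H258 and 4672 with H342, that is 0.07 and -0.04. DNAJB11, its abundant DNAJ partner for new proteins, had 7235, 7457 and 7068 units, that is 0.02 and 0.08. Neither gene was apart from the median of all genes by more than 0.10. HSP90B1, the HSP90 of the lumen, had 18765, 12346 and 19178 units. It was 1.58-fold lower with H258, a log2 difference of -0.66, and 0.10 with H342. By exact letters its window holds 2 stress elements and that of HSPA5 holds 1. Looser forms were not searched, and whether the elements bear on these values was not tested.

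DNAJC10, a reductase that opens disulfides of proteins bound for degradation, followed the same order of arrays as HSP90B1. Its signals were 1604, 925 and 2028 units, its differences -0.83 with H258 and 0.45 with H342, and its second detected probe gave -0.87 and -0.14. HSPA13, an HSP70 without the client-binding part, had 414, 298 and 394 units and -0.61 with H258 against 0.00 with H342. DNAJC3, a DNAJ partner of HSPA5, had 206, 174 and 197 units and -0.47 with H258 against -0.01 with H342. Both are dim, and without background correction their differences with H258 were -0.42 and -0.20. DNAJC1, a membrane protein whose J domain faces the lumen, showed 0.19 and 0.54 at 191, 197 and 218 units. It is dim as well, and its value with H342 was 0.25 without background correction.

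DNAJB9, which holds the stress sensor IRE1 inactive together with HSPA5, went the other way. It had 1189 units in untreated cells, 1019 with H258 and 561 with H342. It was 2.23-fold lower with H342, a log2 difference of -1.16, and -0.19 with H258. Without background correction the value with H342 was -0.996, just short of 2-fold, and from the authors' normalized values -0.93. It was the 1 lumen gene called in a comparison with untreated cells, and the other 7 differed from untreated by between -0.04 and 0.54 with H342.

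Set side by side, the lumen median was below the cytosolic one with H258 and above it with H342, by amounts that changed with the processing. With H258 the median of the 8 lumen genes was -0.33 and that of 20 cytosolic genes 0.04, a gap of -0.37. With H342 the medians were 0.04 and, over 21 cytosolic genes, -0.04, a gap of 0.08, which was 0.34 when a detection p under 0.01 was required. The medians over all genes were 0.06 and 0.03. The gap with H258 was -0.03 when HSP70, HSP110 and HSP90 genes alone stood for the cytosol, -0.21 without background correction, -0.23 from the authors' normalized values and -0.23 with membrane genes added to the lumen. Of the 8 lumen genes 5 were below 0 with H258, and of the 20 cytosolic genes 9 were. With a median over 8 genes and 1 array a condition, the gap has no error and was not tested.

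The DNAJ genes of the endoplasmic reticulum membrane were mixed in sign. Of 6 genes 5 were detected, and 3 were above 0 and 2 below with H258 as with H342. DNAJB14 was lowest with H258, at 309, 205 and 294 units and a difference of -0.98, against 0.01 with H342. Its value with H258 was -0.54 without background correction. Its close relative DNAJB12, also a membrane protein with its J domain in the cytosol, had 554, 651 and 483 units and 0.36 against -0.14. The 4 detected probes of DNAJB12 spread from -0.22 to 0.36 with H258, so its sign is not settled, nor is the class median of 0.36 with H258, which is the value of its brightest probe. DNAJC18 was 0.56 and 0.13, and DNAJC14 0.48 and 0.51. At DNAJC18, dim at 188, 218 and 188 units, the value with H258 was 0.26 without background correction. DNAJC25 was -0.20 and -0.14.

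In mitochondria the main chaperones were a little lower on both treated arrays. HSPD1 (HSP60), the folding chamber of the matrix, had 33947 units in untreated cells, 27606 with H258 and 26818 with H342. HSPE1, its lid, had 18245, 14651 and 15423 units. The differences were -0.37 and -0.27 for HSPD1 and -0.36 and -0.15 for HSPE1, and each of their further detected probes also lay below 0 with both dyes. HSPA9, the HSP70 of the matrix, had 9200, 8923 and 7635 units and -0.14 and -0.19. DNAJC30, which aids the respiratory chain, was higher with H258 by 2.39-fold at 202, 315 and 224 units. Without background correction its log2 difference was 0.69 in place of 1.26, and with H342 it was 0.45. DNAJC11, found at mitochondrial contact sites, showed 0.21 and 0.14. The medians of the 7 detected mitochondrial genes were -0.14 and -0.01.

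The BAG genes included the lower call with H342 that had the most probes to check it. BAG5, which regulates HSP70 and the ubiquitin ligase parkin, had 1377 units in untreated cells, 1476 with H258 and 670.0 with H342. It was 2.11-fold lower with H342, a log2 difference of -1.08, and 0.14 with H258. The value with H342 was -0.95 without background correction and -0.89 in the authors' normalized table, both short of 2-fold. Its other 2 detected probes gave -1.03 and 0.18 with H342, so 2 of 3 probes were lower by 2-fold and the third was not. With H258 these other 2 probes gave -0.54 and 0.17. BAG6, a guide of tail-anchored proteins, was higher with both dyes, by 0.38 and 0.26. The probes of BAG4, which silences death receptors, disagreed. The probe used had 219, 212 and 191 units and differences of -0.01 and -0.30. A second probe had 229, 152 and 160.0 units, was not detected with H258, and was at least 2.09-fold lower with H258 and 2.01-fold lower with H342. BAG1 was detected in untreated cells alone, at 166, 144 and 153 units, all near the weakest detected signals. Its bounds were at least 1.04-fold lower with H258 and at least 1.05-fold lower with H342. HSF1, the main heat shock factor, had 295, 328 and 368 units and differences of 0.33 and 0.58, and HSF4 was not detected. The values of HSF1 were 0.21 and 0.38 without background correction. HSPA12A, a distant HSP70 relative, was 0.37 and 0.54.

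DNAJ proteins with specialised tasks held the remaining calls. DNAJC2, which sits on ribosomes together with HSPA14, had 224 units in untreated cells, 144 with H258, where it was not detected, and 165 with H342. Its log2 difference with H258 was -1.32, and against the weakest detected level it was at least 1.9997-fold lower, so the bound itself lay just under the 2-fold line. DNAJC27, a small GTPase with a J domain, had 300.4, 251 and 196 units and was 2.05-fold lower with H342. Both values fell short of 2-fold without background correction, at -0.60 and -0.55. DNAJC13, which acts in endosomal transport, had 723, 473 and 887 units and differences of -0.70 and 0.44. DNAJC17, a spliceosome factor, was 0.46 and 0.26. DNAJC5, a vesicle protein, was 0.55 and 0.05. DNAJC24, an enzyme cofactor of diphthamide synthesis, was -0.06 and 0.26.

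**Figure D3:**
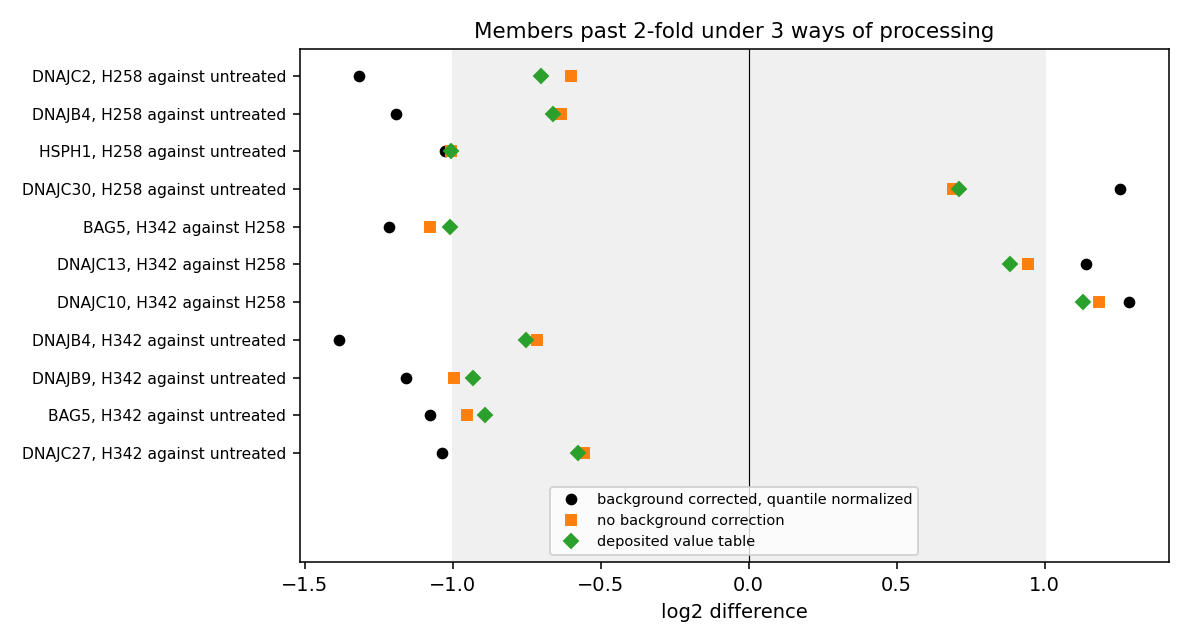
Log2 differences (horizontal axis) of each chaperone gene past 2-fold in a comparison (vertical axis), under the main processing, without background correction and in the authors' normalized table; the shaded band is less than 2-fold. HSPH1 with H258, and DNAJC10 and BAG5 between the dyes, stayed at 2-fold in all 3, and the dim genes DNAJB4, DNAJC2, DNAJC27 and DNAJC30 moved to between -0.75 and 0.71.

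The dyes were given at the same dose and for the same time, so 1 pair of compounds was compared. Of 57 chaperone genes compared, 2 were higher with H342 than with H258 and 1 was lower, beside 3.74% higher and 3.69% lower among all 10296 genes. DNAJC10 was 2.44-fold higher with H342, and its other detected probe showed 0.73 on the log2 scale. DNAJC13 was 2.21-fold higher. Its log2 difference was 0.95 without background correction and 0.88 in the authors' normalized table, both short of 2-fold. BAG5 was 2.32-fold lower, and its 3 detected probes spread from -1.21 to 0.01. No interval can be given for these differences, and genes under 2-fold are not shown to respond alike to the hydroxyl and the ethoxy dye.

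Between the dyes, the lumen genes lay above the cytosolic ones, with no test of it. The lumen median was 0.41 and the cytosolic median -0.11, a gap of 0.51, beside a median of -0.01 over all genes. Of the 8 lumen genes 6 were above 0, among them DNAJC10, HSP90B1 at 0.76, HSPA13 at 0.61 and DNAJC3 at 0.46, while DNAJB9 was at -0.97 and HSPA5 at -0.11. Of 21 cytosolic genes 13 were below 0, down to HSPB8 at -0.78 and DNAJB1 at -0.70, while HSPH1 was at 0.72 and HSP90AA1 at 0.57. The gap was 0.16 when the membrane genes were added to the lumen, in size below the -0.23 of H258 against untreated cells with the same genes. It was 0.27 without background correction and 0.29 from the authors' normalized values.

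Different probes of the same gene show how far its log2 difference between 2 arrays depends on the probe. Whether they read the same transcripts was not tested, and their spread is not an error between samples. There were 11 chaperone genes with at least 2 probes detected on all arrays. The median spread between the lowest and the highest probe of a gene was 0.34 on the log2 scale with H258 and 0.34 with H342, beside 0.24 and 0.23 over 2211 genes. The signs of all probes agreed for 7 of the 11 genes with H258, for 6 with H342 and for 5 between the dyes. The widest gaps were at DNAJC21 with H258, where probes gave -0.58 and 0.46, and at BAG5 with H342. DNAJC28, an uncharacterised member, has 1 bright probe, at 8681, 7799 and 8146 units, while its other 3 probes were undetected on all arrays, and which transcript the bright probe reads was not tested.

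**Figure D4:**
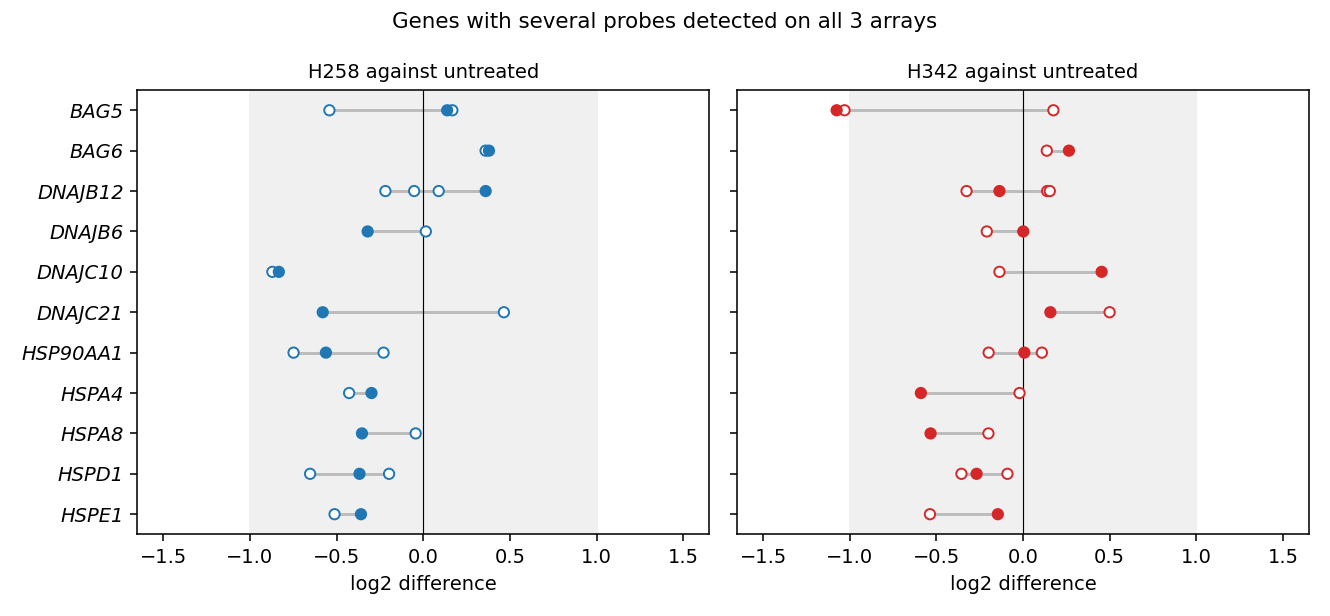
Log2 differences (horizontal axis) from each probe detected on all 3 arrays for the 11 chaperone genes with at least 2 such probes (vertical axis), for H258 and H342 against untreated; filled points are the probe used for the gene, open points its other probes, grey lines join them, and the shaded band is less than 2-fold. Probes of HSP90AA1, HSPD1 and HSPE1 lie on 1 side of 0 with H258, while those of BAG5 and DNAJC21 lie on both sides.

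Genes that work with these chaperones but lie outside the rule were read in the same way. Of 29 cytosolic partners compared, such as the CCT and prefoldin subunits and HSP90 co-chaperones, 0 passed 2-fold with either dye. Their medians were 0.04 for H258 and -0.05 for H342. Among all genes compared, 3.35% were lower and 0.768% higher with H258, and 3.61% and 1.25% with H342. CHORDC1, an HSP90 co-chaperone, was the lowest with H258 at -0.89, and PFDN2, a prefoldin subunit, the highest at 0.79. PFDN2 is dim at 198, 254 and 180 units. Without background correction its value with H258 was 0.40 and no longer the highest. With H342 the lowest was CCT6A at -0.62 and the highest STUB1, the ubiquitin ligase CHIP, at 0.43. No enrichment of these lists was tested.

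Partners in the endoplasmic reticulum had medians of 0.18 over 23 genes with H258 and 0.10 over 24 genes with H342. With H258 2 of them were lower by 2-fold and 0 were higher, beside 3.35% lower and 0.768% higher among all genes compared. SEC62, a translocation factor, was 2.19-fold lower at 536, 294 and 469 units. SEC63, a membrane DNAJ protein that brings HSPA5 to the translocon, was 2.13-fold lower at 285, 187 and 278 units. With H342 0 passed 2-fold, and SEC62 was -0.13 and SEC63 0.06. Without background correction the values with H258 were -0.80 and -0.56. PDIA3, a disulfide isomerase, had 145, 194 and 173 units, near the weakest detected signals, and was undetected in untreated cells. It was at least 1.74-fold higher with H258 and at least 1.36-fold higher with H342. Its log2 differences without background correction were 0.45 and 0.30. HYOU1, the HSP110 of the lumen, was 0.35 and 0.66, and PPIB, a proline isomerase, 0.18 and -0.88. PPIB is dim at 316, 329 and 213 units, and its value with H342 was -0.50 without background correction.

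Of 16 mitochondrial partners 0 were called with H258 and 1 was lower with H342, beside 3.61% of all genes lower with H342. GRPEL2, a nucleotide exchange factor of HSPA9, had 2925, 2015 and 1398 units and was 2.05-fold lower with H342, after -0.55 with H258. The medians were 0.09 and -0.02. SPG7, a subunit of an inner membrane protease, was the highest with H342 at 0.84, and HTRA2, a protease of the intermembrane space, the highest with H258 at 0.64.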

How the data were processed

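Expression in H2373 cells was measured on 3 arrays, grouped by the treatment in the labels. As deposited by the authors, signal intensities are bead averages from BeadStudio 3.1.3.0, per the labels, with no background subtracted. The detection p-value of each probe, deposited by the authors beside it, compares the probe with negative control beads. A second table of intensities, which the authors had normalized on a linear scale, served as an alternative, made by a method not stated in the sources at hand. The columns had medians of 131 units, and each correlated with the log2 signals of its array at r above 0.99 across probes. File and text name different versions of the BeadChip, and genes were named by the version in the file.

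R 4.3.3 with limma 3.58.1 and Python 3.11.15 with numpy 2.4.6, pandas 2.3.3 and matplotlib 3.10.9 were used. The normal-exponential background model of neqc was applied with an offset of 16, then quantile normalization between arrays, and log2 values were compared. Of 48798 probes, 28093 had 1 gene symbol, 13 had several and 20692 had none, and only those with 1 were used. The brightest probe stood for a gene. A gene was compared when detected at a p under 0.05 on 1 of the arrays and called at 2-fold. A side not detected was set to the weakest detected level of its array to bound the fold. The RefSeq gene table held all 77 symbols, and HSF2 and BAG2 were not analysed here. The pipeline was checked on simulated data, with changes larger than 2-fold placed in bright probes only. That check did not cover changes in dim genes or differences close to 2-fold.

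Members, compartments and partner lists were chosen with earlier results of these data known. Genes named were those past 2-fold, the defining members of each class, the 2 highest and 2 lowest of each class against untreated, and of each partner list those past 2-fold and the ends. HSPA2, HSPA6, HSPA13, DNAJC3, DNAJC21, DNAJC28, HSF4 and CRYAB, outside that rule, were named after their values were seen. The alternatives were other background corrections, normalizations, detection filters, folds, probe summaries and class limits.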

Additional observations from a re-analysis of the deposited data

How the results depend on the processing

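No paired analysis was possible because each condition has a single array, which also leaves no replicate to drop. No called gene changed direction under the alternatives, while the medians of all chaperone genes, close to 0, ranged from -0.076 to 0.020 with H258 and from -0.096 to 0.027 for H342 against H258. By the probes not used for their gene, BAG4 would also be lower by 2-fold with both dyes. Below, counts are of chaperone genes past 2-fold unless another fold is given.

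At 1.5-fold, 8 genes were lower with H258, 1 was higher and 9 were lower with H342, and 8 were higher and 9 lower with H342 than with H258. Partners at 1.5-fold were 3 higher with H258 and 2 higher and 1 lower with H342 in the endoplasmic reticulum, 1 higher and 3 lower with H258 and 1 lower with H342 in the cytosol, and 1 higher with H258 and 1 higher and 2 lower with H342 in mitochondria. The shares of all genes were taken at 2-fold under the main processing only. Counts at 1.5-fold or under other settings therefore have no array-wide rate beside them, and cannot be read as particular to chaperones. At 3-fold every count of called genes and partners was 0.

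Without background correction, and also in the authors' normalized table, 0 genes were higher and 1 was lower with H258, 0 were lower with H342 and 1 was higher with H342 than with H258, and partners of the endoplasmic reticulum lower with H258 and of mitochondria lower with H342 were 0. An offset of 50 gave 0 higher and 1 lower with H258, and 1 partner of the endoplasmic reticulum lower. The gap between lumen and cytosolic medians for H342 against H258 was 0.27 without background correction, 0.29 in the normalized table and 0.16 with membrane genes added. For H258 it was -0.029 with HSP70, HSP110 and HSP90 genes alone as cytosolic, and for H342 it was 0.34 at a detection p under 0.01. The mean of detected probes gave 0 genes lower with H342 than with H258 and 1 partner of the endoplasmic reticulum lower with H258, and counting probes gave 5 lower with H258 and 1 such partner higher. Without normalization between arrays, 2 genes were lower with H342 than with H258, the median with H342 was -0.092 and that of cytosolic partners -0.15. Beyond the changes that the settings make by their own construction, the cause was not tested. Signals near the weakest detected level, as at DNAJB4, DNAJC2 and DNAJC27, limit how well a fold can be measured.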
